A study of Mus musculus with 4 samples.

Results

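Matrix metalloproteinases (MMPs) and their tissue inhibitors (TIMPs) were described in alveolar macrophages (AM) of WT and TREM2-/- mice, as 9 genes of the 19946 that had a named probe set on the arrays. The 9 genes, *Mmp2*, *Mmp9*, *Mmp12*, *Mmp13*, *Mmp14*, *Mmp19*, *Timp1*, *Timp2* and *Timp3*, were taken by name as the Mmp and Timp genes of lung macrophages, and each had 1 probe set. The choice followed no rule on their values, but it was made with earlier results of these data known. AM were recovered by bronchoalveolar lavage of untreated mice, and their RNA was read on 4 Affymetrix arrays, 2 for each genotype, each with RNA of pooled mice. The WT mice were C57/Blk6 and the TREM2-/- mice carried a Trem2 mutation backcrossed 10 times to C57/Blk6, both aged 8 to 10 weeks and matched for sex. WT mice came from a supplier and were bred in the same facility, and the sources used here do not call them littermates. The mutation was carried by the whole animal and was not restricted to AM.

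MMPs are zinc endopeptidases that are made as inactive zymogens and cut collagens, elastin, gelatin and many cytokines and receptors once a propeptide is removed. TIMPs bind the active site of MMPs and block them, and TIMP-2 and MMP-14 also form the cell surface complex that activates pro-MMP-2. Macrophages are a main source of MMP-12, the macrophage elastase, whose gene stands beside other Mmp genes in 1 cluster, and they also make the collagenases and gelatinases that remodel lung matrix.

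Among the 9 genes, *Mmp12* was lower and *Mmp9*, *Mmp14* and *Timp2* were higher on both arrays of TREM2-/- AM than on either WT array, but none of these differences passed limma's adjusted p of 0.05. The fold differences were small, from 1.36-fold for *Mmp12* to 1.08-fold for *Mmp14*. The arrays of both genotypes overlapped for the other 5 genes. Among all 19946 genes, the arrays of 42.8% did not overlap between genotypes.

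**Figure D1:**
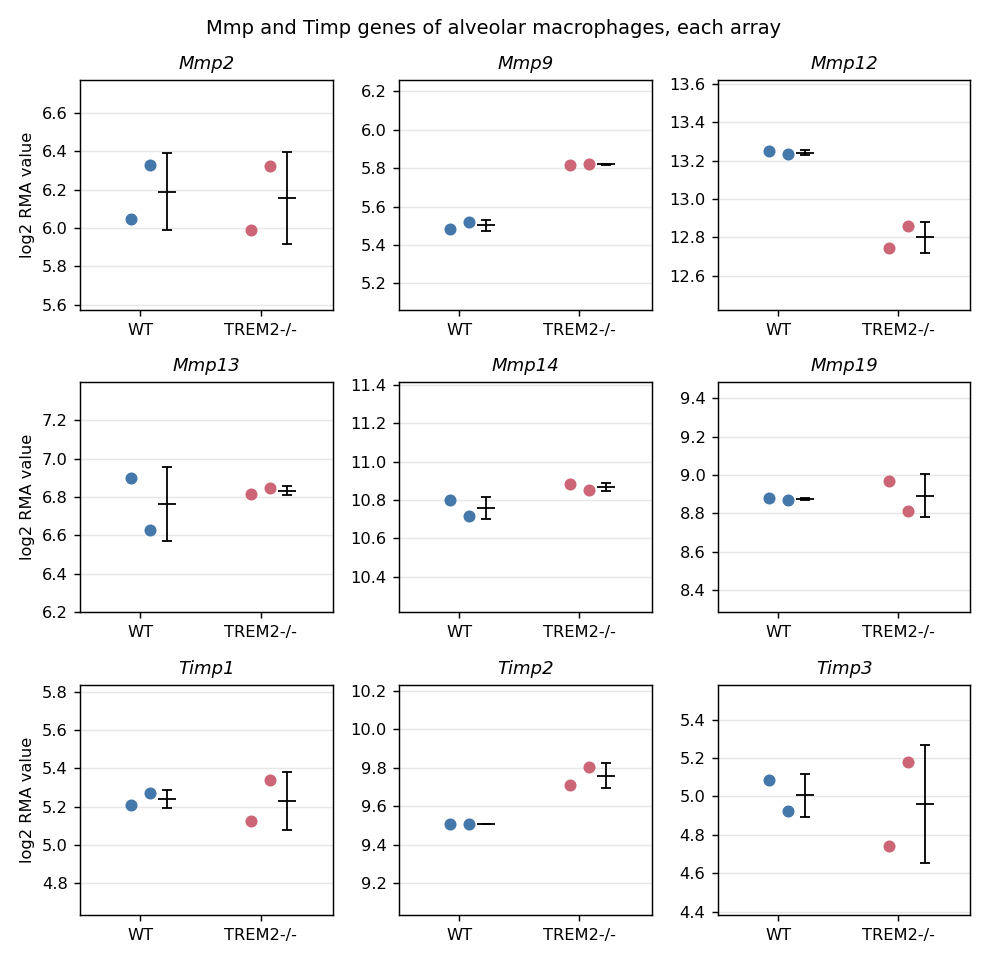
The log2 RMA value (vertical axis, 1.2 log2 units in every panel) of each of the 9 genes on the 2 WT arrays (blue) and the 2 TREM2-/- arrays (red), with the mean and SD in black. *Mmp12* lies near 13.24 on the WT arrays and near 12.80 on the TREM2-/- arrays, *Mmp9* and *Timp2* lie higher on the TREM2-/- arrays, and *Mmp2*, *Mmp13*, *Mmp19*, *Timp1* and *Timp3* overlap.

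The promoters of 3 members are shown because *Mmp12* and *Timp2* are the 2 members that passed an adjusted threshold under an alternative setting given further on, in opposite directions, and *Mmp13* is the neighbour of *Mmp12* in the gene order. Each run is the 250 bases before an annotated transcription start, read 5′ to 3′ on the strand of the gene from RefSeq for the build GRCm38.p6, and capitals mark TGANTCA, the letters searched for AP-1, the Fos and Jun dimer that is known to drive many Mmp genes. The letters read the same on both strands. The windows are chr9:7347124-7347373 on the plus strand for *Mmp12*, chr9:7272264-7272513 on the plus strand for *Mmp13* and chr11:118355412-118355661 on the minus strand for *Timp2*.
Mmp12: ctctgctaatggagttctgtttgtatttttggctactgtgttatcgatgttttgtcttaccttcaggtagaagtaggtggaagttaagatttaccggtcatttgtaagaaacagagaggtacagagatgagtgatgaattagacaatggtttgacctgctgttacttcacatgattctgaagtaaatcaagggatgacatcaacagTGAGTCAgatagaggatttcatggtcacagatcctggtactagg
Mmp13: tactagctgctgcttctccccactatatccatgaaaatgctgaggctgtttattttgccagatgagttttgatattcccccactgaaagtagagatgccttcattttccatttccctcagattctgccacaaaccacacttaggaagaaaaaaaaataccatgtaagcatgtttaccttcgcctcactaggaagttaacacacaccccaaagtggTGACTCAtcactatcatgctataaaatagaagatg
Timp2: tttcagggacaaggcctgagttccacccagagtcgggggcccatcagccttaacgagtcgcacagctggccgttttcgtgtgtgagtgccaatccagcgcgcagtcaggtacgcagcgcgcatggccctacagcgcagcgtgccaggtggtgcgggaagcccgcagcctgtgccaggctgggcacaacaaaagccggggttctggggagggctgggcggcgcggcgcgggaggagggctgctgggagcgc
Of the 9 members, 6 had an entry in the promoter table, with 7 windows in all, because *Mmp12* had a pair of annotated starts. The *Mmp12* window shown holds TGAGTCA from 44 to 38 bases before its start, and the *Mmp13* window holds TGACTCA from 35 to 29 bases before its start. The letters were not found in the other *Mmp12* window or in those of *Mmp14*, *Timp1*, *Timp2* and *Timp3*. That other *Mmp12* window, chr9:7344147-7344396 on the plus strand, lies upstream of the one shown. Of the *Mmp12* windows, only the one that holds the letters is shown, and which start AM use was not tested. Of all 32851 windows of this length in the table, 2217, or 6.75%, held them, and a match is a description of the letters, not of binding.

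*Mmp12*, which encodes the elastase of macrophages, had log2 values of 13.25 and 13.23 in WT AM and of 12.75 and 12.86 in TREM2-/- AM. Both WT arrays lay above both TREM2-/- arrays, and the gap between genotypes was wider than the gap between the arrays of either genotype. The mean was 13.24 ± 0.01 (SD, n = 2) in WT AM and 12.80 ± 0.08 (SD, n = 2) in TREM2-/- AM, a log2 fold change of −0.44 (standard error, SE, 0.08, 95% interval −0.63 to −0.25, limma adjusted p = 0.104), so that the signal was 1.36-fold higher in WT cells. *Mmp12* did not pass the test over all genes. The highest value of any probe set was between 14.22 and 14.33 on the 4 arrays, so the *Mmp12* probe set was read near the top of the scale, where RMA gives no flag for saturated probes.

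*Mmp12* passed an adjusted threshold under 2 of the alternatives. When limma was allowed a trend of the variance with intensity and robust estimation, the same difference had an adjusted p of 6.11e-06, and when only the 10783 genes with a mean log2 value of at least 6 were tested, limma's adjusted p was 0.0167. Significance analysis of microarrays (SAM), the test named in the study's methods, did not call it. The log2 fold change lay between −0.50 and −0.38 when any 1 array was left out, with limma's adjusted p between 0.269 and 0.377. Over the alternatives that give an adjusted p it ran from 6.11e-06 to 0.445, the upper end from the methods' t-test after Benjamini-Hochberg adjustment. The direction was the same in all 14 alternatives, but only quantile normalization and median centring, both at −0.43, could have turned it. The others kept the values of *Mmp12* as they were, or left out 1 array where the genotypes do not overlap.

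The gelatinases cut denatured collagen and basement membrane collagen. *Mmp9*, the gelatinase that is also stored in neutrophil granules, had log2 values of 5.48 and 5.52 in WT AM and of 5.82 on both arrays of TREM2-/- AM. Its values were close within each genotype and did not overlap between them. Each lay below the median of its array, 5.84 to 5.86, and signal over background could not be read. The log2 fold change was 0.32 (SE 0.07, 95% interval 0.15 to 0.49, limma adjusted p = 0.175), or 1.25-fold, from a mean of 5.50 ± 0.03 to 5.82 ± 0.0034 (SD, n = 2 each). *Mmp9* did not pass limma's test over all genes or that of SAM, and with the intensity trend its adjusted p from limma was 0.159. *Mmp2*, the gelatinase made mainly by stromal cells, had log2 values of 6.05 and 6.33 in WT AM and of 5.99 and 6.32 in TREM2-/- AM. Each genotype had 1 array near 6.0 and 1 near 6.3, so the spread within a genotype was far larger than the difference, which was −0.033 (95% interval −0.38 to 0.32, limma adjusted p = 0.95).

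*Mmp13*, the interstitial collagenase of rodents, had log2 values of 6.90 and 6.63 in WT AM and of 6.82 and 6.85 in TREM2-/- AM. The TREM2-/- arrays lay between the WT arrays, and the log2 fold change was 0.068 (95% interval from −0.19 to 0.32, limma adjusted p = 0.85).

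*Mmp14*, the membrane-type protease that activates pro-MMP-2 at the cell surface, had log2 values of 10.80 and 10.72 in WT AM and of 10.88 and 10.85 in TREM2-/- AM. Both TREM2-/- arrays were higher by a small step. The interval of the difference included 0, and the log2 fold change was 0.11 (95% interval from −0.07 to 0.29, limma adjusted p = 0.635). *Mmp19*, a secreted protease that cuts basement membrane proteins, had log2 values of 8.88 and 8.87 in WT AM and of 8.97 and 8.81 in TREM2-/- AM. The WT arrays lay between the TREM2-/- arrays, and the log2 fold change was 0.017 (95% interval from −0.19 to 0.22, limma adjusted p = 0.956).

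Among the inhibitors, *Timp2*, whose protein both inhibits MMPs and bridges MMP-14 to pro-MMP-2, had a log2 value of 9.51 on both WT arrays and values of 9.71 and 9.81 on the TREM2-/- arrays. Both TREM2-/- arrays were higher, and the WT arrays were nearly identical to each other. The log2 fold change was 0.25 (SE 0.07, 95% interval 0.07 to 0.43, limma adjusted p = 0.305), or 1.19-fold, from a mean of 9.51 ± 0.0001 to 9.76 ± 0.07 (SD, n = 2 each). It did not pass limma's test over all genes or that of SAM, but passed when the intensity trend was used, with an adjusted p of 0.029 from limma. Without 1 array the log2 fold change was between 0.21 and 0.30, and over the alternatives that give an adjusted p it lay between 0.029 and 0.712.

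*Timp1*, the soluble inhibitor that inflammatory signals induce, had log2 values of 5.21 and 5.27 in WT AM and of 5.12 and 5.34 in TREM2-/- AM. Its WT arrays lay between the TREM2-/- arrays, and the log2 fold change was −0.0098 (95% interval from −0.24 to 0.22, limma adjusted p = 0.98). *Timp3*, the inhibitor that binds to the matrix, had log2 values of 5.08 and 4.93 in WT AM and of 4.74 and 5.18 in TREM2-/- AM. The TREM2-/- arrays of *Timp3* were the widest pair of the 9 genes, and the log2 fold change was −0.045 (95% interval from −0.41 to 0.32, limma adjusted p = 0.936). *Timp1* and *Timp3* lie within introns of *Syn1* and *Syn3*, and limma called 0 of the 3 synapsin genes, with 0 at an unadjusted p below 0.05 and 0 by SAM. The log2 fold change was −0.012 (limma adjusted p = 0.973) for *Syn2*, the host of *Timp4*, and −0.01 (limma adjusted p = 0.974) for *Syn3*. *Syn1* was at 0.0062 (limma adjusted p = 0.985), which was added after its value was seen.

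Of the 9 members, limma called 0 at an adjusted p below 0.05, against 113 of 19946 genes, or 0.567% (0.431% higher and 0.135% lower in TREM2-/- AM). At an unadjusted p below 0.05 it counted 3 members, *Mmp9* and *Timp2* higher and *Mmp12* lower, where 11.5% of all genes passed. The arrays of both genotypes did not overlap for 4 members, 3 higher and 1 lower, and for 42.8% of all genes. SAM called 0 members and 0.983% of all genes. The intensity trend with robust variance called 2 members, *Mmp12* and *Timp2*, and 3.35% of all genes. The filter on mean log2 values called 1 member, *Mmp12*, and 3.31% of the genes it kept. The methods' t-test without adjustment counted 3 members, *Mmp9*, *Mmp12* and *Timp2*, and 9.19% of all genes, and 0 after adjustment. The median log2 fold change of the 9 members was 0.017, against −0.02 over all genes. The smallest difference that limma called among all genes was 0.54 on the log2 scale, which is larger than that of any member. No source used here tells whether the pools of 1 genotype held different mice, so the p-values cover only the spread from array to array, which may be technical.

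**Figure D2:**
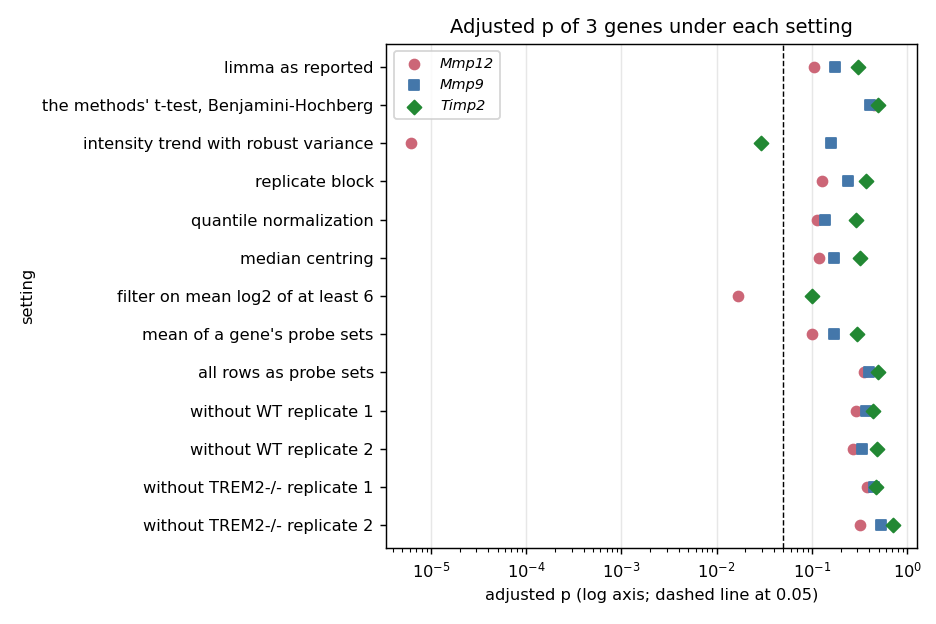
The adjusted p (horizontal axis, log scale, dashed line at 0.05) of *Mmp12* (circles), *Mmp9* (squares) and *Timp2* (diamonds) under limma as reported and each alternative that gives an adjusted p (rows). *Mmp12* lies left of 0.05 with the intensity trend (6.11e-06) and with the filter on mean log2 values (0.0167), *Timp2* with the intensity trend (0.029), and *Mmp9*, which the filter leaves out, in no row.

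**Figure D3:**
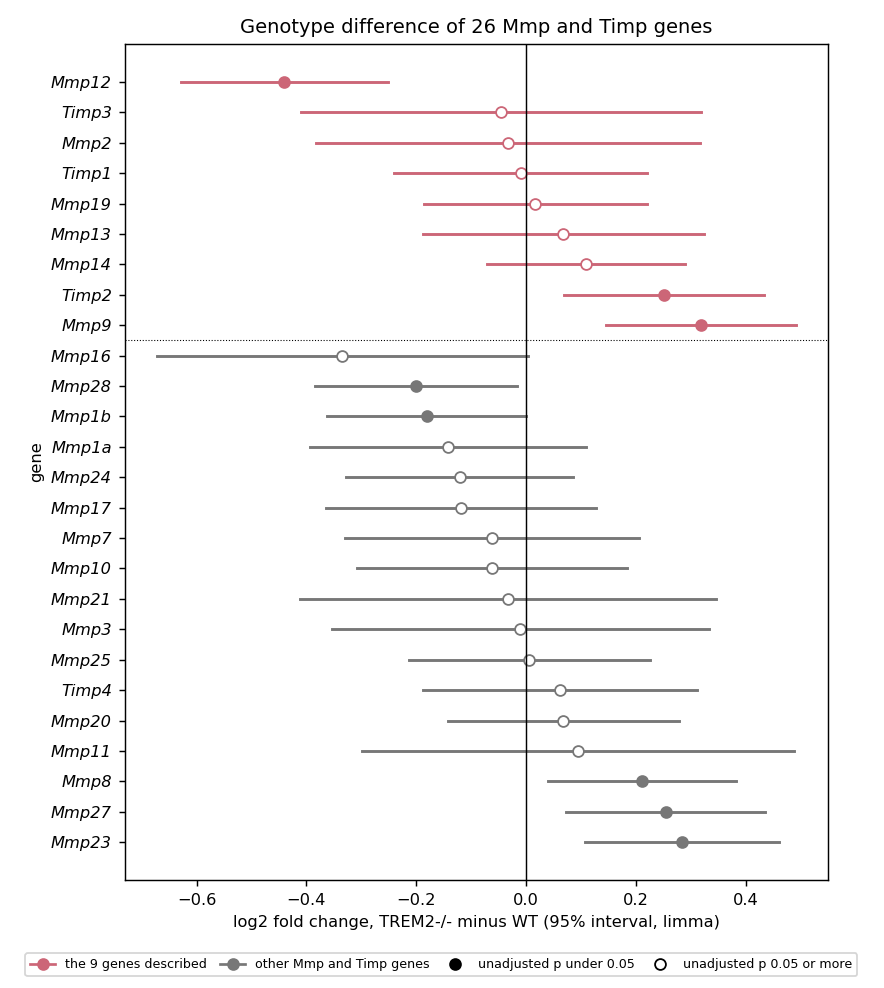
The log2 fold change of TREM2-/- minus WT AM (horizontal axis, points) with its 95% interval from limma (lines) for the 9 genes described (red, above the dotted line) and 17 other Mmp and Timp genes (grey), where a filled point has an unadjusted p below 0.05. Among the 9 genes, the intervals of *Mmp12*, *Timp2* and *Mmp9* do not include 0, and no gene of the family passed the adjusted threshold.

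No detection call was at hand, so the place of a member on its array was read against the quartiles of all rows of the table. *Mmp12*, *Mmp14*, *Mmp19* and *Timp2* lay above the upper quartile, 8.13 to 8.17, on all 4 arrays. The other 5 lay between the quartiles, and 0 of the 9 lay below the lower quartile, 4.39 to 4.40. Values of different probe sets depend on their probes and were not compared with each other as amounts.

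None of the other Mmp and Timp genes passed limma's test. Of 18 listed, 17 were measured and *Mmp15* was not analysed here. Limma called 0 of the 17 and counted 5 at an unadjusted p below 0.05, 3 higher and 2 lower, SAM and the intensity trend called 0, and the methods' t-test without adjustment counted 3, *Mmp8*, *Mmp23* and *Mmp27*. Among all genes, 11.5% had an unadjusted p below 0.05 by limma and 9.19% by the methods' t-test. Limma called 0.567% of all genes, SAM 0.983% and the intensity trend 3.35%. The median log2 fold change of the 17 was −0.033, with a range from −0.33 to 0.28. *Mmp16*, a membrane-type protease, had the largest difference, with log2 values of 4.998 and 4.86 in WT AM and of 4.79 and 4.39 in TREM2-/- AM (log2 fold change −0.33, limma adjusted p = 0.439). Its arrays did not overlap between genotypes, but those of TREM2-/- AM were far apart, and the log2 fold change was −0.135 without TREM2-/- replicate 2 and −0.533 without TREM2-/- replicate 1. *Mmp23* had log2 values of 5.37 and 5.40 in WT AM and of 5.64 and 5.69 in TREM2-/- AM (log2 fold change 0.28, limma adjusted p = 0.237). *Mmp8*, the collagenase of neutrophils, had log2 values of 7.79 and 7.81 in WT AM and of 8.01 on both TREM2-/- arrays (log2 fold change 0.21, limma adjusted p = 0.35). For *Mmp27* the log2 fold change was 0.25 (limma adjusted p = 0.298), and for *Mmp28* it was −0.20 (limma adjusted p = 0.40).

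*Mmp12* and *Mmp13* belong to 10 Mmp genes that follow each other on chromosome 9 in the order *Mmp13*, *Mmp12*, *Mmp1b*, *Mmp3*, *Mmp1a*, *Mmp10*, *Mmp8*, *Mmp27*, *Mmp20* and *Mmp7*. All 10 were measured, limma called 0 of them and counted 4 at an unadjusted p below 0.05, SAM called 0, the intensity trend and the filter called *Mmp12* alone, and their median log2 fold change was −0.036, with a range from −0.44 to 0.25. *Mmp12* and its neighbour *Mmp1b* (log2 fold change −0.18, limma adjusted p = 0.432) lay lower on both TREM2-/- arrays, *Mmp8* and *Mmp27* lay higher on both, and the arrays overlapped for the other 6. Among all genes, 11.5% had an unadjusted p below 0.05 by limma, and the arrays of 42.8% did not overlap. Limma called 0.567% of all genes, SAM 0.983% and the intensity trend 3.35%, and the filter called 3.31% of the genes it kept. *Mmp1b*, *Mmp3* and *Mmp1a* lay below the lower quartile on all arrays, and *Mmp1a* and *Mmp1b* are close copies whose probes can share signal. *Mmp1b* was named after its value was seen.

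Genes of proteins that activate MMPs, or inhibit and clear them, held the largest differences of the lists around the members. Of 21 measured genes of this kind, limma called 1 higher and 1 lower, against 0.567% of all genes, with a median log2 fold change of −0.018. *Serpinb2*, which encodes an inhibitor of urokinase, rose from 4.32 and 4.49 in WT AM to 7.32 and 7.29 in TREM2-/- AM (log2 fold change 2.90 with an SE of 0.09, limma adjusted p = 0.000328). Its WT values lay close to the lower quartile of 4.39 to 4.40, where background could not be read, so the difference may be a lower bound. *Plau*, which encodes urokinase, the protease that forms plasmin, itself an activator of pro-MMPs, fell from 9.24 and 9.25 to 8.16 and 8.38 (log2 fold change −0.98 with an SE of 0.10, limma adjusted p = 0.0165). *Serpinb2* stayed called when any 1 array was left out, whereas *Plau* was no longer called without WT replicate 1 (limma adjusted p = 0.0958), WT replicate 2 (0.0904) or TREM2-/- replicate 1 (0.0819).

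Other proteases that act on matrix did not pass limma's test. The share of all genes at an unadjusted p below 0.05 by limma was 11.5%. Limma called 0.567% of all genes, SAM 0.983% and the intensity trend 3.35%. Of 19 measured ADAM and ADAMTS proteases, relatives of the MMPs that several TIMPs also inhibit, limma called 0 and counted 1 at an unadjusted p below 0.05, with a median log2 fold change of −0.015. SAM and the intensity trend called 0 of them. The largest log2 fold changes were 0.26 (limma adjusted p = 0.337) for *Adam19* and 0.13 (limma adjusted p = 0.549) for *Adam10*, the sheddase of many surface proteins. Of 16 cathepsins, elastases and related genes, limma called 0 and counted 1 at an unadjusted p below 0.05, with a median of −0.03. *Ctsl*, a lysosomal protease that can degrade elastin, had log2 values of 11.81 and 11.83 in WT AM and of 11.56 and 11.67 in TREM2-/- AM (log2 fold change −0.20, limma adjusted p = 0.402). *Ctsh*, an aminopeptidase of the lysosome, had a log2 fold change of 0.17 (limma adjusted p = 0.453). SAM called 0 of the 16, and the intensity trend called 2, *Ctsl* and *Ctsh*.

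Of 24 genes of matrix proteins and of enzymes that act on matrix, limma called 1, with a median log2 fold change of 0.036. It counted 6 at an unadjusted p below 0.05, all higher. Whether MMPs cut the products of these 24 genes was not tested. SAM called 3 and the intensity trend 5. Of the SAM calls, *Sparc* (log2 fold change 0.59, limma adjusted p = 0.0743) and *Lox* (0.52, limma adjusted p = 0.0938) were named after their calls were seen. Among all genes, limma called 0.567% and counted 11.5% at an unadjusted p below 0.05. SAM called 0.983% of all genes and the intensity trend 3.35%. *Ecm1*, which encodes a secreted matrix protein that binds MMP-9, rose from 8.24 and 8.12 in WT AM to 9.10 and 9.06 in TREM2-/- AM (log2 fold change 0.90 with an SE of 0.08, limma adjusted p = 0.0115). It was no longer called without WT replicate 2 (limma adjusted p = 0.0599), TREM2-/- replicate 1 (0.102) or TREM2-/- replicate 2 (0.0915). Of 13 cytokines and chemokines that MMPs process, limma called 0 and counted 6 at an unadjusted p below 0.05, with a median of 0.075. *Il1b*, whose precursor several proteases can cut, had log2 values of 8.63 and 8.86 in WT AM and of 9.34 and 9.49 in TREM2-/- AM (log2 fold change 0.67, limma adjusted p = 0.0798). *Tgfb2*, a growth factor secreted in a latent form, had values of 5.81 and 5.51 in WT AM and of 6.27 and 6.32 in TREM2-/- AM (log2 fold change 0.63, limma adjusted p = 0.103). Neither gene's arrays overlapped between genotypes, and those of 42.8% of all genes did not. SAM called 4 of the 13, these and *Ltbp1* and *Vegfa*, which were named after their calls were seen.

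Of 15 measured transcription factors and receptors that induce Mmp genes, limma called 0 and counted 4 at an unadjusted p below 0.05, 2 higher and 2 lower, with a median log2 fold change of 0.035. Among all genes, limma counted 11.5% at an unadjusted p below 0.05 and called 0.567%, and SAM called 0.983%. The intensity trend called 3.35% of all genes, and the filter 3.31% of the genes it kept. *Fos*, the AP-1 subunit, had log2 values of 8.76 and 8.86 in WT AM and of 8.36 and 8.33 in TREM2-/- AM (log2 fold change −0.46, limma adjusted p = 0.0891). *Fosl1*, which encodes the related subunit FRA-1, had values of 6.52 and 6.68 in WT AM and of 6.26 and 6.13 in TREM2-/- AM (log2 fold change −0.41, limma adjusted p = 0.178). The genes that lay higher, *Ets2* (log2 fold change 0.34, limma adjusted p = 0.164) and *Fosl2*, another AP-1 subunit (0.30, limma adjusted p = 0.248), were named after their values were seen. SAM called 0 of the 15, the intensity trend called these 4, and the filter on mean log2 values called *Fos*, *Fosl1* and *Ets2*. Their relation to *Mmp12* was not tested.

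**Figure D4:**
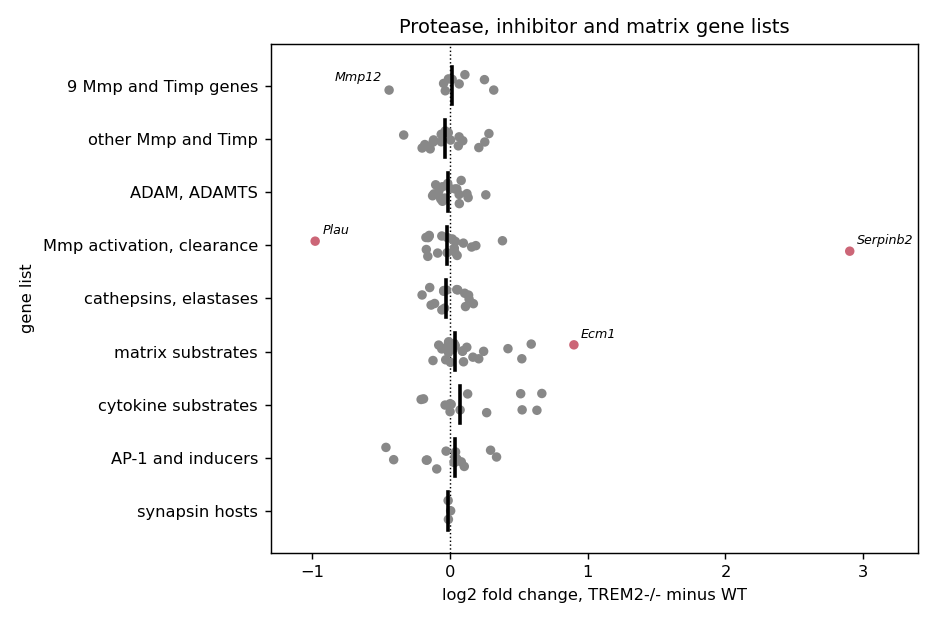
The log2 fold change of TREM2-/- minus WT AM (horizontal axis) of each measured gene (points) in the 9 Mmp and Timp genes and in 8 lists of related genes (rows, with a small vertical scatter for legibility), with the median of each list as a black bar and genes called by limma in red. All medians lie between −0.033 and 0.075, *Serpinb2* and *Ecm1* are the called genes on the right and *Plau* is the called gene on the left.

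The targeted gene, *Trem2*, was lower on both TREM2-/- arrays, at 7.64 and 7.45 against 9.58 and 9.74 (log2 fold change −2.11 with an SE of 0.10, limma adjusted p = 0.0009). Pearson's r across probe sets, which are not independent replicates, was 0.994 between the WT arrays, 0.995 between the TREM2-/- arrays and 0.992 to 0.993 between genotypes. The mean log2 value of 15 alveolar macrophage markers was 11.15 to 11.16 on the WT arrays and 11.17 to 11.21 on the TREM2-/- arrays, with *Car4* called higher (log2 fold change 0.90), and 13 of the 15 lay above the upper quartile on all arrays, as the label of the cells says. *Car4* was no longer called without WT replicate 1 (limma adjusted p = 0.0825), TREM2-/- replicate 1 (0.198) or TREM2-/- replicate 2 (0.221). Of these markers, 10 had a negative log2 fold change and the median was −0.019. The arrays did not overlap for 8 that lay lower and 4 that lay higher in TREM2-/- AM, against 42.8% of all genes in either direction. In bulk RNA, a change in the number of cells of a type and a change in RNA per cell cannot be told apart.

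Other cell types that make MMPs and TIMPs were read from their markers. Among all genes, limma called 0.567% and counted 11.5% at an unadjusted p below 0.05, and SAM called 0.983%. For neutrophils, which store MMP-8 and MMP-9, the mean of 12 markers was 5.57 to 5.59 on the WT arrays and 5.71 on both TREM2-/- arrays, limma called 0 of the 12 and counted 3 at an unadjusted p below 0.05, and SAM called 1, *Csf3r*, while *Ly6g*, *Retnlg* and *Ngp*, which define mature and maturing neutrophils, lay below the lower quartile on all arrays. *Csf3r*, the receptor of granulocyte colony-stimulating factor, had a log2 fold change of 0.64 (limma adjusted p = 0.0702) and *Lcn2*, whose protein binds MMP-9, one of 0.38 (limma adjusted p = 0.164), in the same direction as *Mmp8* and *Mmp9*. Of the 12 markers 9 had a positive and 3 a negative log2 fold change, with a median of 0.054, and *Cxcr2*, a chemokine receptor of neutrophils named after its value was seen, was at −0.28 (limma adjusted p = 0.552). The part of these genes in the *Mmp9* and *Mmp8* values was not tested. For fibroblasts and smooth muscle, a source of MMP-2 and the TIMPs, the mean of 11 markers was 5.41 to 5.42 in WT AM and 5.32 to 5.37 in TREM2-/- AM, and *Lum* and *Fap* lay below the lower quartile. Limma called 0 of the 11, with 0 at an unadjusted p below 0.05 and 0 by SAM, and the largest log2 fold changes were −0.21 (limma adjusted p = 0.648) for *Inmt* and −0.13 (limma adjusted p = 0.544) for *Pdgfra*.

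The largest marker difference was that of interstitial or monocyte-derived macrophages. The mean of 14 of their genes was 8.13 to 8.15 on the WT arrays and 8.72 to 8.74 on the TREM2-/- arrays, and limma called 9 of them, against 0.567% of all genes. *Cx3cr1*, *Ccr2*, *Cd14*, *Pf4*, *Apoe*, *H2-Aa*, *H2-Ab1* and *Cd74* rose, by 0.56 to 1.98 on the log2 scale, and *Itgam* fell (log2 fold change −0.54, limma adjusted p = 0.0486), while *Cd163* lay below the lower quartile. Of the 14, 10 had a positive and 4 a negative log2 fold change. Besides *Itgam*, the negative ones were *Lyve1* (−0.094), *Folr2* (−0.066) and *Maf* (−0.011), none of them called. These were named after their values were seen. *Pf4* and *Apoe* stayed called when any 1 array was left out, whereas *Cx3cr1*, *Ccr2*, *Cd14*, *Cd74* and *Itgam* were no longer called without any 1 of the 4. *Itgam* was not called by SAM either. *H2-Ab1* was lost without TREM2-/- replicate 1 (limma adjusted p = 0.061), and *H2-Aa* without that array (0.0678) or TREM2-/- replicate 2 (0.0691). The mean of 13 lung epithelial markers was 6.53 to 6.54 on the WT arrays and 6.87 to 6.91 on the TREM2-/- arrays, with *Scgb1a1* (log2 fold change 0.91) and *Cldn18* (1.23) called higher. Limma counted 8 of the 13 at an unadjusted p below 0.05, 7 higher and 1 lower, against 11.5% of all genes. SAM called 5, against 0.983%, and the intensity trend 7, against 3.35%. The further SAM calls, *Krt8* (0.83), *Krt18* (0.95) and *Krt19* (0.55), were named after their calls were seen. *Scgb1a1* was no longer called without any 1 of the 4 arrays, nor *Cldn18* without TREM2-/- replicate 2 (limma adjusted p = 0.0691). Of the 13, 5 had a negative log2 fold change, among them *Cdh1*, the epithelial cadherin, at −0.45 (limma adjusted p = 0.164), which was named after its value was seen. The part of either list in the lower *Mmp12* and the higher *Timp2* and *Mmp9* signals was not tested.

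The remaining lists had smaller differences in their means. The share of all genes at an unadjusted p below 0.05 by limma was 11.5%. For endothelium, the mean of 7 markers was 5.46 to 5.50 in WT AM and 5.32 to 5.35 in TREM2-/- AM, with *Emcn* below the lower quartile. Limma called 0 of them and counted 2 at an unadjusted p below 0.05, *Vwf* (log2 fold change −0.37, limma adjusted p = 0.144) and *Emcn* (−0.19, limma adjusted p = 0.40), and SAM called 0. For T, NK and B cells, the mean of 9 markers was 4.93 to 4.96 in WT AM and 4.94 to 5.03 in TREM2-/- AM, with *Klrb1c*, *Cd79a* and *Ms4a1* below the lower quartile. Limma called 0 of them and counted 1 at an unadjusted p below 0.05, *Cd3g* (log2 fold change 0.32, limma adjusted p = 0.219), with *Cd4* next (0.13, limma adjusted p = 0.577), and SAM called 0. For dendritic cells and eosinophils, the mean of 10 markers was 5.43 to 5.46 in WT AM and 5.49 to 5.61 in TREM2-/- AM, with *Alox15* (log2 fold change 1.52) called higher and the eosinophil receptor *Ccr3* below the lower quartile. Of these 10 markers, 7 had a negative and 3 a positive log2 fold change, with a median of −0.032, and *Alox15* alone was called.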

How the data were processed

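The authors hybridized RNA to Affymetrix mouse gene 1.0 ST arrays, ran the robust multi-array average (RMA) on all 4, that is a background correction, equal distributions on all arrays and 1 summary a probe set, and deposited the log2 values. Build mm9 and RMA, with no version, stand in the submitters' processing notes. Groups came from the sample labels.

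The platform annotation gave 21797 probe sets 1 symbol, and 1613 with several were not used. A gene kept its probe set of highest mean, which left 19946 genes. The test between genotypes was that of limma 3.58.1 (lmFit, then eBayes, under R 4.3.3), checked on simulated data. It was two-sided, its p-values were adjusted by Benjamini-Hochberg over all 19946 genes at a threshold of 0.05, and the replicate number was no term in it. SAM was run at a false-discovery rate of 5% from code written here, over all 6 assignments of the arrays. The number of arrays limits the precision.

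The 9 members, 7 pathway lists, the other Mmp and Timp genes and 8 marker lists were chosen with earlier results of these data known. Named were all members, *Trem2*, the 5 largest differences among the other Mmp and Timp genes, and of each other list the called genes or, where none was called, the 2 with the largest difference. Promoters and gene order came from RefSeq for GRCm38.p6, which is not the build of the files. The alternatives changed the test (SAM, the methods' t-test with and without adjustment, limma with robust variance and an intensity trend, limma blocked on the replicate number), the values (quantile normalization, median centring), the genes (those with a mean log2 of 6 or more, probe sets averaged by gene, every row tested as a probe set) or the arrays (each left out in turn).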

Additional observations from a re-analysis of the deposited data

How the results depend on the processing

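Of 123 combinations of a member and an alternative, 107 kept the direction and the side of the threshold, 6 passed it in the same direction and 10 turned the direction. Of the 6, 3 passed the unadjusted threshold of the methods' t-test, and 2 with the intensity trend and 1 with the filter passed an adjusted threshold. As limma called 0 members, none could fall below it. The alternatives that changed only the test or the set of genes left the log2 fold change of every member as it was. The direction was kept under every alternative for *Mmp9*, *Mmp12*, *Mmp14* and *Timp2*. For these genes, whose arrays did not overlap between genotypes, only quantile normalization and median centring could have turned it. The 5 members that turned had differences of at most 0.068. With quantile normalization *Timp1* was at 0.0256, *Timp3* at 0.0004, *Syn2* at 0.0129 and *Syn3* at 0.0277. Without 1 array, the log2 fold change ranged from −0.20 to 0.14 for *Mmp2*, from −0.0689 to 0.21 for *Mmp13*, from −0.0615 to 0.10 for *Mmp19*, from −0.12 to 0.10 for *Timp1*, from −0.26 to 0.17 for *Timp3*, from −0.11 to 0.0879 for *Syn2*, from −0.0558 to 0.0358 for *Syn3* and from −0.43 to 0.0167 for *Inmt*.

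Calls changed more than values. The pathway lists held 111 measured genes and the marker lists 91. Among all genes, limma called 0.567%, SAM 0.983%, the methods' t-test without adjustment 9.19% and the intensity trend 3.35%. The filter called 3.31% of the genes it kept. Members called were 3 by the methods' t-test without adjustment (*Mmp9*, 0.32, *Mmp12*, −0.44, and *Timp2*, 0.25), 2 with the intensity trend (*Mmp12* and *Timp2*) and 1 with the filter (*Mmp12*), which tests fewer genes. The t-test without adjustment called 3 of the other Mmp and Timp genes. Against 3 called by limma, the pathway lists held 9 calls by SAM, 25 by the t-test, 0 by the t-test after adjustment, 18 with the trend, 11 with the filter, 1 with all rows as probe sets and 1 to 2 without 1 array. Against 13, the marker lists held 27, 0, 25, 21 and 1 by the t-test, the adjusted t-test, the trend, the filter and all rows, and 4 to 7 without 1 array. The cause was not tested.

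With the replicate number as a block (replicate block), 0 members were called, *Mmp12* had an adjusted p of 0.128 by limma, and the pathway and marker lists held 4 and 14 calls. Among the genes named, the block changed the calls of *Itgam* (limma adjusted p = 0.0631) and *Cd14* (0.0565), which were lost, and of *Il1b* (0.0266) and *Csf3r* (0.0301), which were gained. The numbers only name the arrays, and the deviations of the arrays numbered 1 correlated at −0.0517. Signal over background could not be read from RMA values, and with 2 arrays a genotype the intervals of *Timp1* and *Timp3* reach down to −0.24 and −0.41.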
